A study of Mus musculus with 9 samples.

Results

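The genes described here are 10 genes of canonical NF-κB signaling in mouse BM macrophages, in 3 sets by role. They are the factors Nfkb1, Rela and Rel, the IκB inhibitors Nfkbia, Nfkbib and Nfkbie, and a kinase set. That set holds the kinases Ikbkb and Map3k7, the kinase scaffold Ikbkg and the kinase adaptor Tab2. The 10 genes were taken by symbol from a fixed list of names and were 10 of 13526 genes in the expression table. All 10 passed the filter on low values, which kept 12932 genes. BM macrophages of 8-week-old C57BL/6 mice were cultured in medium with 10% FBS and M-CSF at 10 ng/mL for 3 days. They then received no RANKL (control), RANKL for 48 hours, or RANKL plus recombinant mouse cystatin M/E (rmCst6, labelled CST6), a secreted inhibitor of cysteine proteases, for 48 hours. RNA-Seq was done on 3 samples a group. The doses of RANKL and rmCst6 in these samples are not stated in their labels, nor is any genotype beyond the strain, nor whether M-CSF stayed on the control cells after day 3. Since the labels do not say whether the 3 samples of a group came from separate mice, the p-values cover the variation among these 9 samples alone, part or all of which may be technical. The comparison of RANKL with control asks what 48 hours of osteoclast induction did to these mRNAs, and the comparison of RANKL plus rmCst6 with RANKL alone asks what rmCst6 added. No group received rmCst6 without RANKL, so what rmCst6 does on its own was not measured.

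NF-κB factors are dimers held in the cytoplasm by IκB proteins. In the canonical pathway, a receptor such as RANK or a Toll-like receptor activates the kinase TAK1, TAK1 activates the IκB kinase (IKK) complex, and IKK marks IκB for ubiquitination and destruction, so that the dimers enter the nucleus. Several IκB genes are themselves NF-κB targets, which closes a negative feedback loop, and NF-κB activity is required for osteoclast formation. RNA-Seq measures the mRNA of these genes, not phosphorylation, protein or nuclear entry.

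The 3 groups were well separated. The correlation of log2 expression was 0.989 to 0.991 between libraries of a group and 0.859 to 0.903 between libraries of different groups. Read depth is not stated and was not estimated from the normalized values. Macrophage markers were detected in every library, 8 of 8 listed. The osteoclast list summed to 1087 to 1164 normalized units in control, 467520 to 611630 with RANKL alone and 8700 to 11751 with RANKL plus rmCst6. All 8 of its genes were higher with RANKL alone and all 8 were lower with rmCst6 added, and Calcr was at 0 in every control library.

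Promoter sequence is shown for the members whose window held a match to the κB consensus, the 10-letter DNA motif read by NF-κB dimers, because Nfkbia and Nfkbie are among them and their mRNAs changed in opposite directions with rmCst6. RefSeq windows on GRCm38.p6 (250 bases before to 50 after a transcription start, 300 in all) were held for 8 of the 10 genes. Nfkb1 and Ikbkb were not among them. A match on either strand was found in 4 of the 8 genes, Rel, Nfkbia, Nfkbie and Map3k7, and in 9.55% of 27025 genes or 8.46% of 32851 windows. The stretches around it run 5′ to 3′ on the strand of the gene, with the matching bases in capitals. That of Nfkbia lies at chr12:55492622-55492721 on the minus strand, that of Nfkbie at chr17:45555549-45555648 on the plus strand, that of Rel at chr11:23771006-23771106 on the minus strand and that of Map3k7 at chr4:31963970-31964069 on the plus strand.
Nfkbia: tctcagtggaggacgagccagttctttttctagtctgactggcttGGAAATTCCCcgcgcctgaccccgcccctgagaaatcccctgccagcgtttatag
Nfkbie: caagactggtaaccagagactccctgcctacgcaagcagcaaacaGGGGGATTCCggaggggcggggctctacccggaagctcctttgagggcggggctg
Rel: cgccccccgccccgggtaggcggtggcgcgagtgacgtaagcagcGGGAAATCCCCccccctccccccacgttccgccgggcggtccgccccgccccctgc
Map3k7: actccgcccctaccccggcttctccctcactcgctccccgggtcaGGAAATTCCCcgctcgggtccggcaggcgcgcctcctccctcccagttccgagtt
Counted from the transcription start, the capitals begin at position -29 in Nfkbia, -106 in Nfkbie and -92 in both Rel and Map3k7. The same 10 bases, GGAAATTCCC, stand in the Nfkbia and Map3k7 windows. In Rel the capitals cover 3 overlapping matches, with each strand counted separately. The first 10 bases match on both strands and the last 10 only on the strand opposite to the gene. The AP-1 motif TGANTCA, searched on both strands, did not overlap any of these matches. It was found in 2 of the 8 genes, Nfkbie and Ikbkg, beside 8.97% of all genes. By window it was in 4 of 12, among them alternative windows of Ikbkg, beside 7.81% of all windows. A match describes letters in a window. Binding was not measured.

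With RANKL, 8 of the 10 genes passed the test (limma on log2 values, Benjamini-Hochberg adjusted p under 0.05 over all genes tested): Ikbkg was higher and 7 genes were lower. Of all genes tested, 72.5% passed, 36.6% higher and 35.9% lower. With rmCst6 added to RANKL, 9 of the 10 genes passed, with Nfkbib, Nfkbie and Ikbkb higher and 6 genes lower. The shares over all genes were 72.7%, of which 34.8% higher and 38.0% lower. Between RANKL plus rmCst6 and control, all 10 passed, with Nfkbib, Nfkbie and Ikbkg higher and 7 lower, beside 71.7% of all genes, 36.7% higher and 35.1% lower. The groups did not overlap for 8, 9 and 10 members in the 3 comparisons, beside 75.4%, 75.9% and 75.4% of all genes, so most genes of these cells moved and passing the test sets no member apart. The sizes were small for most. The median absolute log2 fold change of the members was 0.29, 0.41 and 0.43, against 0.53, 0.55 and 0.53 over all genes tested. The members' median signed change was -0.25, -0.20 and -0.34, beside -0.01, -0.02 and 0.01 over all genes. Only Nfkbie with rmCst6 added, and Nfkbie and Nfkbia against control, passed the test with a change of at least 2-fold. The comparisons share libraries (the RANKL libraries enter both of the first comparisons), so their values are given side by side and not as independent results. In these bulk samples, fewer cells of a type and less RNA per cell cannot be told apart.

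**Figure D1:**
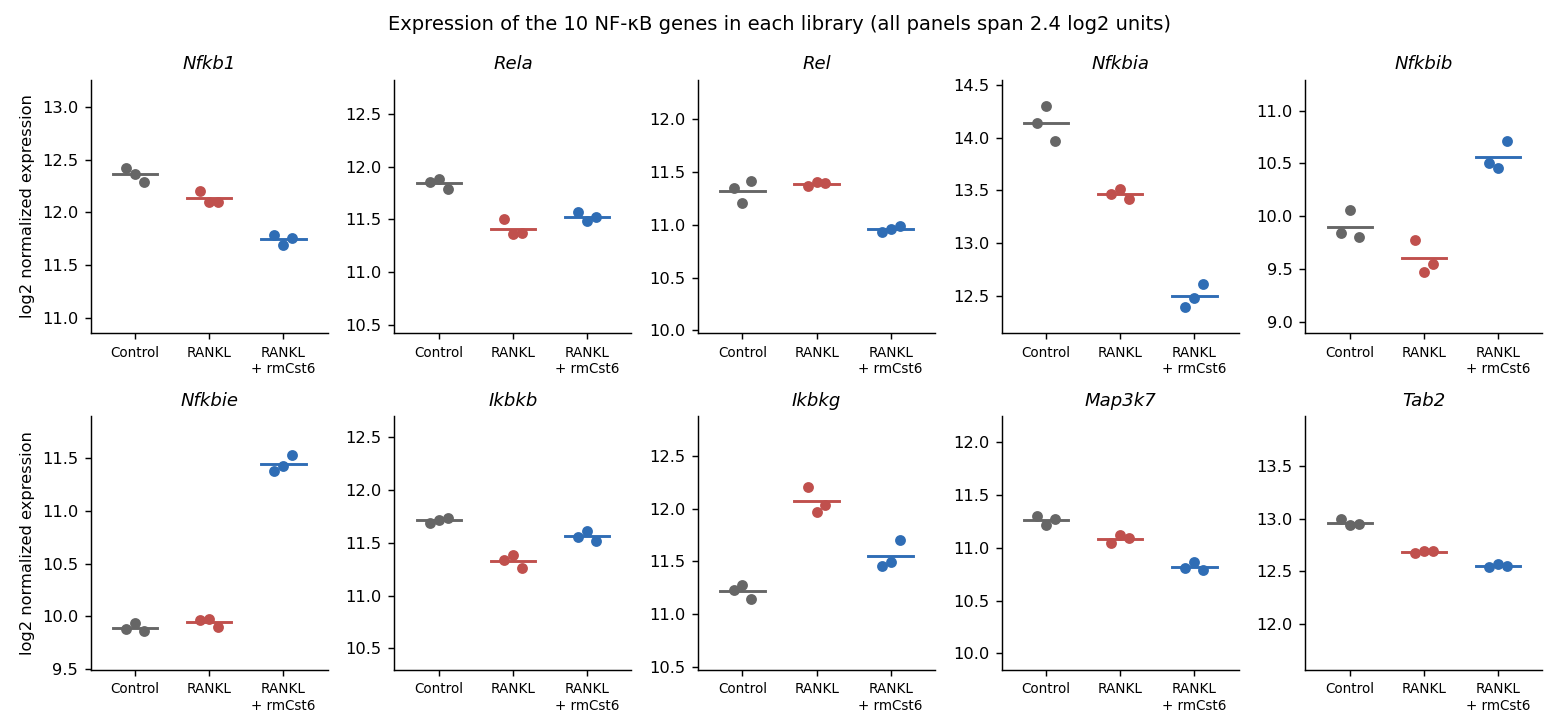
Log2 normalized expression of each of the 10 genes in the 3 control, 3 RANKL and 3 RANKL plus rmCst6 libraries (points, 1 per library; lines, group means; every panel spans the same height). Nfkbie stood at 9.86 to 9.98 in the 6 libraries without rmCst6 and at 11.38 to 11.53 with it, while Nfkbia lay between 13.97 and 14.30 in control and between 12.40 and 12.61 with RANKL plus rmCst6.

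Among the factors, Nfkb1 mRNA was lower with RANKL alone and lower again with rmCst6 added, Rela was lower with RANKL with no further change that passed the test, and Rel was lower with rmCst6 added, after a difference with RANKL that did not pass. No factor was higher in any comparison that passed. Nfkb1 (chr3:135584655-135691547, minus strand) encodes p105, the precursor of the DNA-binding subunit p50. Its log2 normalized expression was 12.42, 12.37 and 12.29 in control, 12.20, 12.10 and 12.09 with RANKL, and 11.79, 11.69 and 11.76 with RANKL plus rmCst6. The groups lay apart in that order. The log2 fold change was -0.23 with RANKL (SE 0.0502, adjusted p = 0.00128, 1.17-fold lower) and -0.39 with rmCst6 added to RANKL (SE 0.0502, adjusted p = 1.54e-05, 1.31-fold lower).

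Rela (chr19:5637483-5648130, plus strand) encodes p65, the main transactivating subunit. Its values were 11.85, 11.88 and 11.79 in control, 11.50, 11.37 and 11.37 with RANKL, and 11.57, 11.48 and 11.53 with RANKL plus rmCst6. Control lay above all 6 treated libraries, and the treated groups overlapped. Rela was 1.35-fold lower with RANKL (log2 fold change -0.43, SE 0.0510, adjusted p = 7.42e-06). With rmCst6 added the log2 difference was 0.11 (95% interval 0.0028 to 0.22, adjusted p = 0.0611), which did not pass. The call depended on 1 library and on the settings: without RANKL replicate 1 the difference was 0.16 and passed (adjusted p = 0.0102), and with all 9 libraries it passed with array weights (0.13, adjusted p = 0.0204) and with median centring (0.15, adjusted p = 0.0119).

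Rel (chr11:23736847-23770970, minus strand) encodes c-Rel, a factor of lymphoid and myeloid cells. Its values were 11.35, 11.21 and 11.41 in control, 11.36, 11.40 and 11.40 with RANKL, and 10.94, 10.96 and 10.99 with RANKL plus rmCst6. The control and RANKL libraries overlapped, and the rmCst6 libraries lay below both. The log2 difference was 0.06 with RANKL (95% interval -0.053 to 0.18, adjusted p = 0.299) and -0.42 with rmCst6 added (SE 0.0539, adjusted p = 1.33e-05, 1.34-fold lower). Against control, Nfkb1 was 1.53-fold, Rela 1.24-fold and Rel 1.28-fold lower with RANKL plus rmCst6 (adjusted p = 2.1e-07, 1.12e-04 and 6e-05).

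With rmCst6 added to RANKL, the 3 IκB genes held the 3 largest changes of the 10, and they moved apart. Nfkbia, by far the most abundant, was lower with RANKL alone and lower again with rmCst6, and Nfkbib and Nfkbie were higher with rmCst6 than in either other group. Nfkbia (chr12:55489410-55492647, minus strand) encodes IκBα, the fast-turnover inhibitor that NF-κB itself induces. It measured 14.14, 14.30 and 13.97 in control, 13.47, 13.52 and 13.42 with RANKL, and 12.40, 12.48 and 12.61 with RANKL plus rmCst6. The 3 groups did not overlap. Nfkbia was 1.59-fold lower with RANKL (log2 fold change -0.67, SE 0.0763, adjusted p = 5.17e-06) and 1.96-fold lower with rmCst6 added (-0.97, SE 0.0763, adjusted p = 1.35e-07). Against control it was 3.12-fold lower with RANKL plus rmCst6 (-1.64, adjusted p = 9.19e-10), and 13.4% of genes tested changed more in that comparison.

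Nfkbie (chr17:45555703-45563169, plus strand) encodes IκBε, a slower inhibitor that also retains Rel and Rela dimers. It measured 9.88, 9.94 and 9.86 in control, 9.96, 9.98 and 9.90 with RANKL, and 11.38, 11.43 and 11.53 with RANKL plus rmCst6. The first 2 groups overlapped, and the rmCst6 libraries stood more than 1 log2 unit above both. The log2 difference was 0.05 with RANKL (95% interval -0.068 to 0.17, adjusted p = 0.41). With rmCst6 added it was 1.50 (SE 0.0548, adjusted p = 8.18e-11), a 2.83-fold rise, and 17.3% of genes tested changed more. Against control the rise was 2.93-fold (log2 fold change 1.55, adjusted p = 6.91e-11). Its promoter window and that of Nfkbia both hold a κB match, as printed above, and their mRNAs differed in direction.

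Nfkbib (chr7:28758251-28767512, minus strand) encodes IκBβ, an inhibitor with a slower response to stimulation. It measured 9.84, 10.05 and 9.80 in control, 9.78, 9.48 and 9.55 with RANKL, and 10.51, 10.46 and 10.71 with RANKL plus rmCst6. Control and RANKL were nearly adjacent, at 9.80 and 9.78 for their closest libraries. Nfkbib was 1.23-fold lower with RANKL (log2 fold change -0.30, SE 0.0962, adjusted p = 0.014), a call lost without control replicate 2 (-0.22, adjusted p = 0.0678) or without RANKL replicate 2 (-0.24, adjusted p = 0.0615). It was 1.95-fold higher with rmCst6 added (0.96, SE 0.0962, adjusted p = 1.44e-06) and 1.58-fold higher than control (adjusted p = 4.63e-05). Its span shares 778 bases with Sirt2 on the opposite strand. Sirt2 had log2 fold changes of -0.74 with RANKL alone and 0.31 with rmCst6 added. The libraries were made with a stranded kit, and whether strand was used in counting is not stated. Of 12 neutrophil and granulocyte progenitor genes, 11 were lower with RANKL alone and 11 were higher with rmCst6 added, and their summed level was 18389 to 25439 normalized units in control, 6272 to 10466 with RANKL alone and 51595 to 60081 with RANKL plus rmCst6, with no gene at 0 throughout a group. This sum and Nfkbib and Nfkbie were all highest with rmCst6, and its part in their change was not tested.

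**Figure D2:**
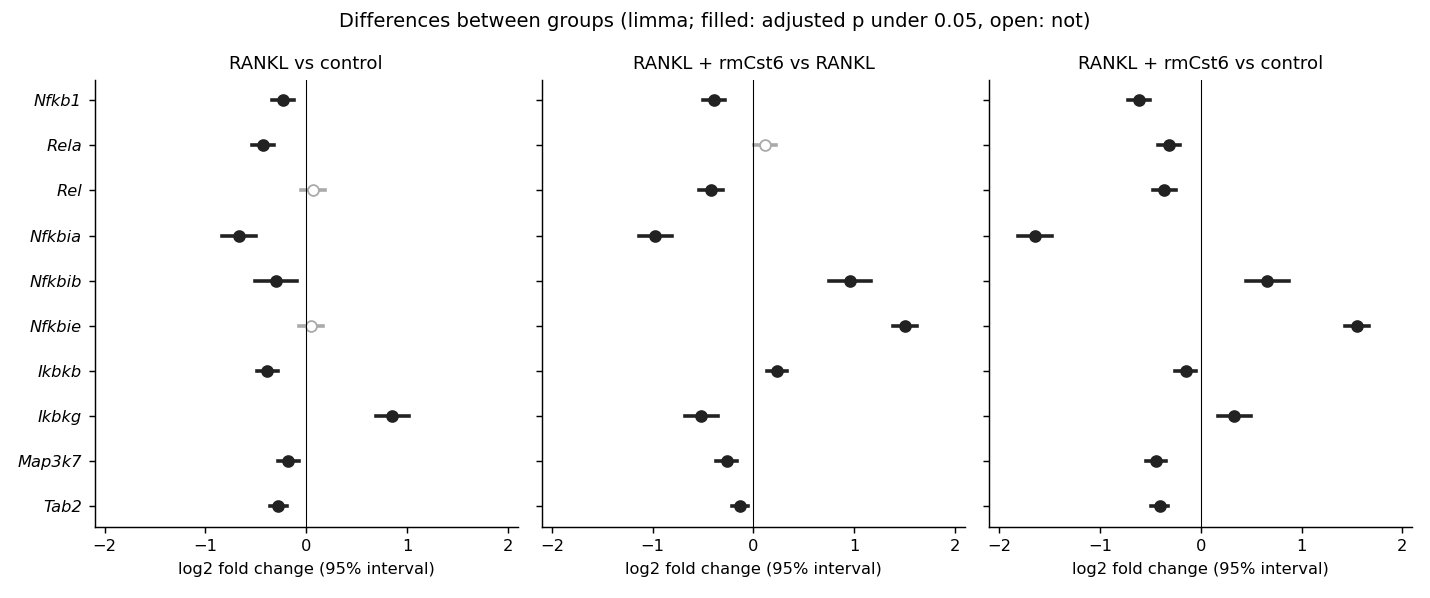
Log2 fold change of each gene (x axis; points, limma estimate; bars, 95% interval; filled points pass an adjusted p of 0.05, open points do not) in the 3 comparisons. Ikbkg is the lone gene above 0 with RANKL among those that passed, and Nfkbia and Nfkbie mark the ends of the range against control, at -1.64 and 1.55.

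The makeup of the IκB mRNA pool is given next as a description, with no test. Levels between genes are compared per kilobase of the principal transcript, as normalized values on the linear scale. The summed level of Nfkbia, Nfkbib and Nfkbie was 12319 ± 1357 per kilobase (SD, n = 3) in control, 7962 ± 259 with RANKL alone and 5543 ± 392 with RANKL plus rmCst6. Nfkbia made up 93.0% ± 0.395 of it in control, 90.2% ± 0.569 with RANKL alone and 66.1% ± 0.545 with RANKL plus rmCst6 (SD, n = 3). Nfkbie made up 3.19% ± 0.273, 5.08% ± 0.0308 and 20.7% ± 0.392 in the same order. Nfkbib made up 3.77% ± 0.16, 4.75% ± 0.543 and 13.2% ± 0.565. In every rmCst6 library Nfkbie held between 20.2% and 21.0% of the pool, and in the other 6 libraries at most 5.10%.

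The ratio of inhibitor to factor mRNA within 1 library does not depend on the scaling between libraries. The log2 ratio of Nfkbia to Rela was 2.29, 2.42 and 2.18 in control, 1.97, 2.15 and 2.05 with RANKL, and 0.83, 1.00 and 1.08 with RANKL plus rmCst6. The 3 groups did not overlap, and the last stood farthest from the others. The log2 ratio of Nfkbie to Rel was -1.47, -1.27 and -1.55 in control, -1.40, -1.43 and -1.50 with RANKL, and 0.44, 0.47 and 0.53 with RANKL plus rmCst6. The control and RANKL libraries overlapped, and the 3 with rmCst6 lay above both. These ratios are not corrected for transcript length, so their sign does not rank one gene above the other, and what can be read is their difference between groups. Over the 3 factors, the mean log2 ratio of Nfkbia fell between RANKL and RANKL plus rmCst6 by 0.58 for Nfkb1, 1.09 for Rela and 0.55 for Rel. That of Nfkbie rose by 1.89, 1.39 and 1.92, and that of Nfkbib by 1.35, 0.85 and 1.38.

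**Figure D3:**
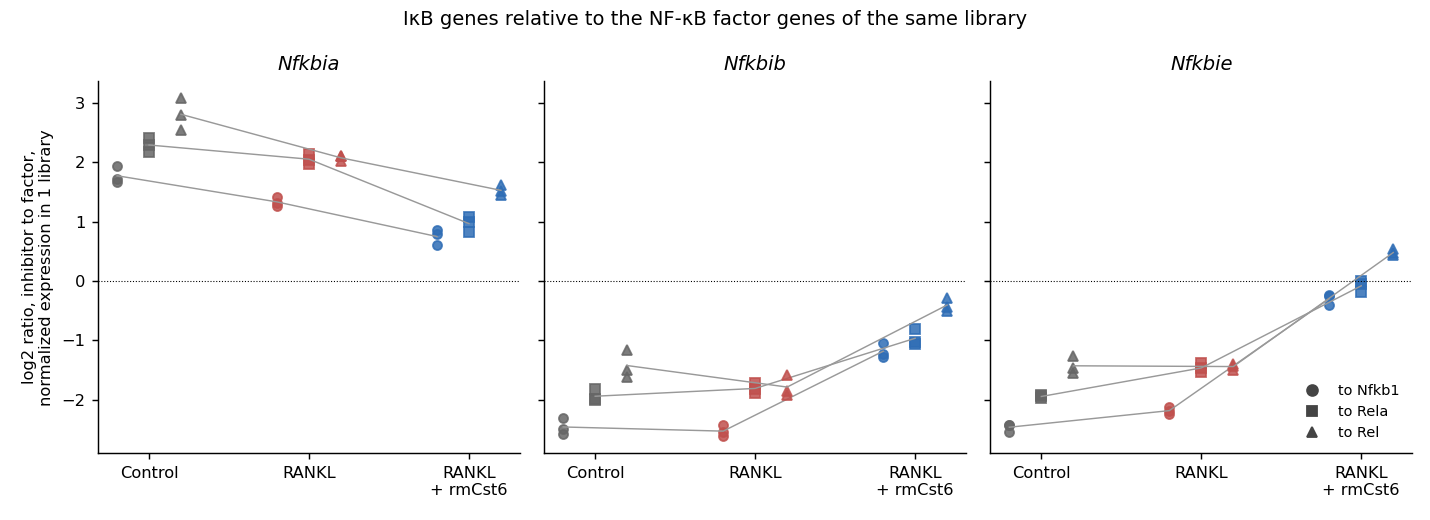
Log2 ratio of each IκB gene to each factor gene within a library (y axis, not corrected for transcript length, circles for Nfkb1, squares for Rela, triangles for Rel; lines join group means; n = 3 libraries a group). The Nfkbia ratios to Rela run from 2.18 to 2.42 in control down to 0.83 to 1.08 with RANKL plus rmCst6, while Nfkbib and Nfkbie ratios are highest with rmCst6.

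Of the kinase set, Ikbkg was the one member higher with RANKL that passed the test, and its change was the largest of the 10 in that comparison. Ikbkg (chrX:74393290-74453854, plus strand) encodes NEMO, the regulatory subunit of IKK that binds ubiquitin chains. It measured 11.23, 11.28 and 11.14 in control, 12.20, 11.97 and 12.04 with RANKL, and 11.45, 11.50 and 11.70 with RANKL plus rmCst6. The rmCst6 libraries lay between the other groups without overlap. Ikbkg was 1.81-fold higher with RANKL (log2 fold change 0.85, SE 0.0747, adjusted p = 4.41e-07), 1.43-fold lower with rmCst6 added (-0.52, SE 0.0747, adjusted p = 4.01e-05), and 1.26-fold higher than control with both (adjusted p = 0.00149). Ikbkg shares 19712 bases of its span with G6pdx on the opposite strand. G6pdx had log2 fold changes of -0.52 with RANKL alone and -0.14 with rmCst6 added. The osteoclast marker sum given above and Ikbkg were both highest with RANKL, and the part of osteoclast formation in the Ikbkg change was not tested.

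Ikbkb (chr8:22659212-22706589, minus strand) encodes IKKβ, the kinase that phosphorylates IκBα. It measured 11.69, 11.72 and 11.73 in control, 11.34, 11.38 and 11.26 with RANKL, and 11.56, 11.61 and 11.52 with RANKL plus rmCst6. The order of the groups was the reverse of that of Ikbkg, again without overlap. Ikbkb was 1.31-fold lower with RANKL (log2 fold change -0.39, SE 0.0466, adjusted p = 8.84e-06), 1.18-fold higher with rmCst6 added (0.23, SE 0.0466, adjusted p = 5.95e-04) and 1.11-fold lower than control with both (-0.15, adjusted p = 0.0111).

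Map3k7 and Tab2, which encode TAK1 and the adaptor that brings it to ubiquitin chains, fell in small steps. Map3k7 (chr4:31964097-32023467, plus strand) measured 11.30, 11.21 and 11.27 in control, 11.05, 11.12 and 11.09 with RANKL, and 10.80, 10.86 and 10.79 with RANKL plus rmCst6. It was 1.13-fold lower with RANKL (log2 fold change -0.18, SE 0.0467, adjusted p = 0.00447) and 1.20-fold lower with rmCst6 added (-0.27, SE 0.0467, adjusted p = 2.16e-04). Its replicate groups did not overlap. Tab2 (chr10:7905653-7956230, minus strand) measured 13.00, 12.94 and 12.95 in control, 12.67, 12.69 and 12.69 with RANKL, and 12.54, 12.57 and 12.55 with RANKL plus rmCst6. It had the smallest spread within the treated groups of the 10 genes, at SDs of 0.0115 and 0.0131, and was 1.21-fold lower with RANKL (-0.28, SE 0.0374, adjusted p = 2.40e-05) and 1.10-fold lower with rmCst6 added (-0.13, SE 0.0374, adjusted p = 0.0066). Against control, Map3k7 was 1.36-fold and Tab2 1.33-fold lower with RANKL plus rmCst6 (adjusted p = 2.49e-06 and 6.34e-07).

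Per kilobase, the 10 genes spanned a wide range of levels. Nfkbia was highest in every group, at 11465 ± 1305 normalized units per kilobase in control, 7179 ± 251 with RANKL alone and 3663 ± 272 with RANKL plus rmCst6 (SD, n = 3). Tab2 came next in every group, at 1820 ± 38.1, 1502 ± 11.9 and 1371 ± 12.4. Rel had the lowest mean in each group, at 344 ± 24.5, 359 ± 5.15 and 268 ± 5.02, overlapping Ikbkg in control and Nfkbib with RANKL. Between these the order shifted. Control ran Rela, Nfkb1, Ikbkb, Nfkbib, Map3k7, Nfkbie and Ikbkg, with overlapping libraries for Rela and Nfkb1 and for Nfkbib and Map3k7. With RANKL, Ikbkg stood at rank 6 with 635 ± 54.2, overlapping Ikbkb, and Map3k7 overlapped Nfkbib. With RANKL plus rmCst6, Nfkbie stood at rank 3 with 1146 ± 59, overlapping Rela, after 391 ± 10.6 in control and 405 ± 11.4 with RANKL. Nfkb1 moved from 1278 ± 58.3 in control to 833 ± 28.2 with RANKL plus rmCst6, where it overlapped Ikbkb and Nfkbib.

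**Figure D4:**
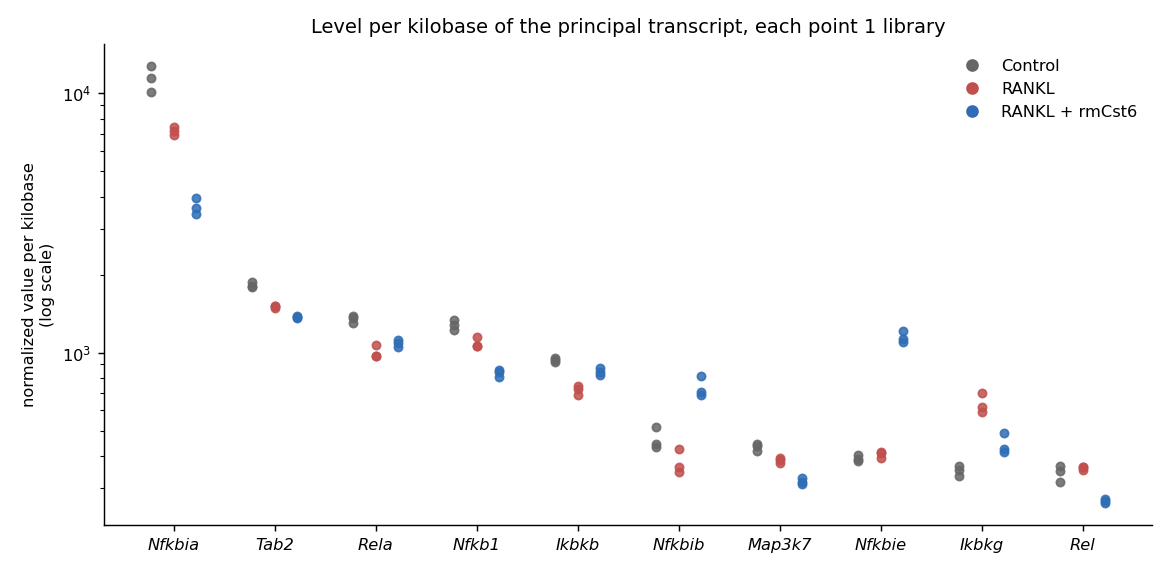
Normalized value per kilobase of principal transcript (y axis, log scale) in each of the 9 libraries (points, colored by group), with genes ordered by their control mean. Nfkbia lies above the other 9 genes in every library, and Nfkbie rises from a mean of 391 in control to 1146 with RANKL plus rmCst6.

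The genes most like each member were sought by the distance between mean-subtracted log2 profiles over the 9 libraries. The closest to Ikbkg was Chchd2 (distance 0.10 log2 units), with log2 fold changes of 0.84 with RANKL alone and -0.52 with rmCst6 added, and the next was Esd. The closest to Nfkbie was Gbp7 (0.14), with 0.10 and 1.52, and the next was Marchf5. Nfkbia was least closely matched, by Nab2 (0.29) and Rab11fip5 (0.29), followed by Nfkbib with Arhgap27 (0.25) and Trappc5 (0.27). The nearest genes were Trpc4ap and Mrtfa for Nfkb1, Ehmt2 and Prr12 for Rela, Khdrbs1 and Alg10b for Rel, Irak2 and Fam76a for Ikbkb, Btbd1 and Rraga for Map3k7, and Kdm3b and Zdhhc9 for Tab2. No member was the nearest gene of another, since members were left out of this search.

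Of 10 listed partners of TAK1 and IKK, 3 were higher and 4 lower with RANKL, and 6 were higher and 2 lower with rmCst6 added. Rnf31, the catalytic subunit of LUBAC, the complex that builds linear ubiquitin chains on NEMO, had log2 expression of 10.56 ± 0.07 in control, 10.02 ± 0.09 with RANKL alone and 11.68 ± 0.14 with RANKL plus rmCst6 (SD, n = 3), a 3.15-fold rise with rmCst6 added (adjusted p = 5.99e-10). Rbck1 and Sharpin, the accessory subunits of LUBAC, rose 1.66-fold and 1.72-fold (adjusted p = 1.27e-07 and 1.64e-07) after falls with RANKL of 1.33-fold and 1.36-fold. Traf6, the ubiquitin ligase that RANK recruits, was 1.46-fold higher with RANKL alone and 1.71-fold lower with rmCst6 added (adjusted p = 1.76e-06 and 5.21e-08). The list median was -0.11 and 0.31, beside -0.01 and -0.02 over all genes tested.

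Of the 5 listed genes of the ligase that ubiquitinates IκB, 4 were matched by symbol, all but Skp1a. With RANKL, 2 were higher and none lower, and with rmCst6 added, 2 were higher and 1 lower. Rbx1, the RING subunit, was 1.36-fold higher with RANKL alone and a further 1.47-fold higher with rmCst6 added (adjusted p = 6.2e-05 and 7.14e-06). Cul1, the scaffold, was 1.16-fold higher and then 1.36-fold lower (adjusted p = 0.00136 and 3.25e-06), and Fbxw11, one of the F-box subunits that bind IκB, was 1.26-fold higher with rmCst6 added (adjusted p = 3.99e-05). Btrc, the other, had log2 differences of 0.08 and 0.11 that did not pass. The list median was 0.15 and 0.22.

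The 3 atypical IκB proteins act in the nucleus. Nfkbiz, which encodes IκBζ, a coactivator of secondary response genes, fell 7.83-fold with RANKL (13.53 ± 0.07 to 10.56 ± 0.24, adjusted p = 3.39e-11) and was 1.20-fold higher with rmCst6 added (adjusted p = 0.0212). Nfkbid, which encodes IκBNS, was 1.25-fold lower with RANKL alone and 2.59-fold lower with rmCst6 added (adjusted p = 6.43e-04 and 9.27e-10). Bcl3, a partner of p50 homodimers, was 1.14-fold higher with RANKL (adjusted p = 0.0403), with a log2 difference of 0.07 with rmCst6 added that did not pass. The median of the 3 was -0.32 and 0.07.

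Of 10 deubiquitinases and other brakes on IKK and TAK1, 3 were higher and 5 lower with RANKL, and 3 were higher and 3 lower with rmCst6 added (list medians -0.17 and -0.08). Tnfaip3, which encodes the ubiquitin-editing enzyme A20, was 1.31-fold lower with RANKL alone and 1.40-fold lower with rmCst6 added (adjusted p = 5.18e-05 and 6.39e-06). Its partner Itch was 1.28-fold and 1.55-fold lower (adjusted p = 2.37e-05 and 1.03e-07), while its partner Rnf11 was 1.33-fold lower and then 1.32-fold higher (adjusted p = 1.23e-05 and 1.21e-05). N4bp1, a suppressor of NF-κB signaling, was 1.49-fold lower and then 1.89-fold higher (adjusted p = 2.18e-07 and 1.98e-09).

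In the noncanonical pathway, which runs through the kinase NIK, 7 of 8 genes were higher with RANKL alone and 1 lower, and 5 were higher and 2 lower with rmCst6 added (list medians 0.87 and 0.15). Map3k14, which encodes NIK, was the one lower with RANKL, by 3.31-fold (adjusted p = 3.48e-10), and was 1.65-fold higher with rmCst6 added (adjusted p = 1.18e-06). Traf2, part of the complex that degrades NIK, was 1.98-fold and then 1.82-fold higher (adjusted p = 3.23e-08 and 9.74e-08). Birc2, a ubiquitin ligase of that complex, was 1.67-fold higher and then 1.31-fold lower, and Relb, the factor of this arm, was 1.53-fold higher and then 1.56-fold lower (adjusted p = 2.38e-06 and 6.69e-04 for Birc2, 2.65e-06 and 1.50e-06 for Relb).

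Of 11 receptor adaptors upstream of IKK, 1 was higher and 7 lower with RANKL, and 4 were higher and 4 lower with rmCst6 added (list medians -0.32 and 0.03). Malt1, the paracaspase of the Card9 and Bcl10 complex, was the one higher with RANKL, by 3.88-fold (adjusted p = 1.18e-10), and was 3.24-fold lower with rmCst6 added (adjusted p = 2.83e-10). Myd88, the adaptor of most Toll-like receptors, was 1.43-fold lower and then 2.19-fold higher (adjusted p = 3.41e-06 and 1.66e-09). The Toll-like receptor adaptors Ticam2 and Tirap were 2.30-fold and 1.39-fold lower with RANKL, and 1.67-fold and 1.42-fold higher with rmCst6 added (adjusted p = 8.73e-09 and 1.33e-04, then 8.19e-07 and 8.04e-05).

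Of 30 listed NF-κB target genes of macrophages, 28 were tested: Il6 was not matched, and Il12b was too low for the filter (it is named here with its values known). With RANKL, 4 were higher and 21 lower, at a median log2 fold change of -1.54. With rmCst6 added, 20 were higher and 6 lower, at a median of 1.00, and against control 13 were higher and 13 lower, at a median of -0.20. The medians over all genes tested were -0.01, -0.02 and 0.01. Marcksl1, which encodes an actin-binding protein, measured 12.72 ± 0.13 in control, 9.32 ± 0.14 with RANKL alone and 13.00 ± 0.05 with RANKL plus rmCst6 (SD, n = 3), a fall of 10.6-fold and a rise of 12.8-fold (adjusted p = 2.77e-12 and 5.15e-13). Ebi3, a subunit of interleukins of the IL-12 family, fell 4.63-fold with RANKL alone and rose 9.24-fold with rmCst6 added (adjusted p = 1.24e-10 and 2.39e-12). The chemokine gene Ccl4 fell 6.77-fold and rose 4.41-fold (adjusted p = 5.69e-12 and 2.23e-11). Cxcl1, a neutrophil chemokine, went the other way with rmCst6: it was 2.18-fold lower with RANKL alone and 7.70-fold lower again with rmCst6 added (adjusted p = 1.22e-06 and 9.74e-11). The neutrophil sum given above was lowest with RANKL alone and highest with rmCst6, and its part in the change of this list was not tested.

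**Figure D5:**
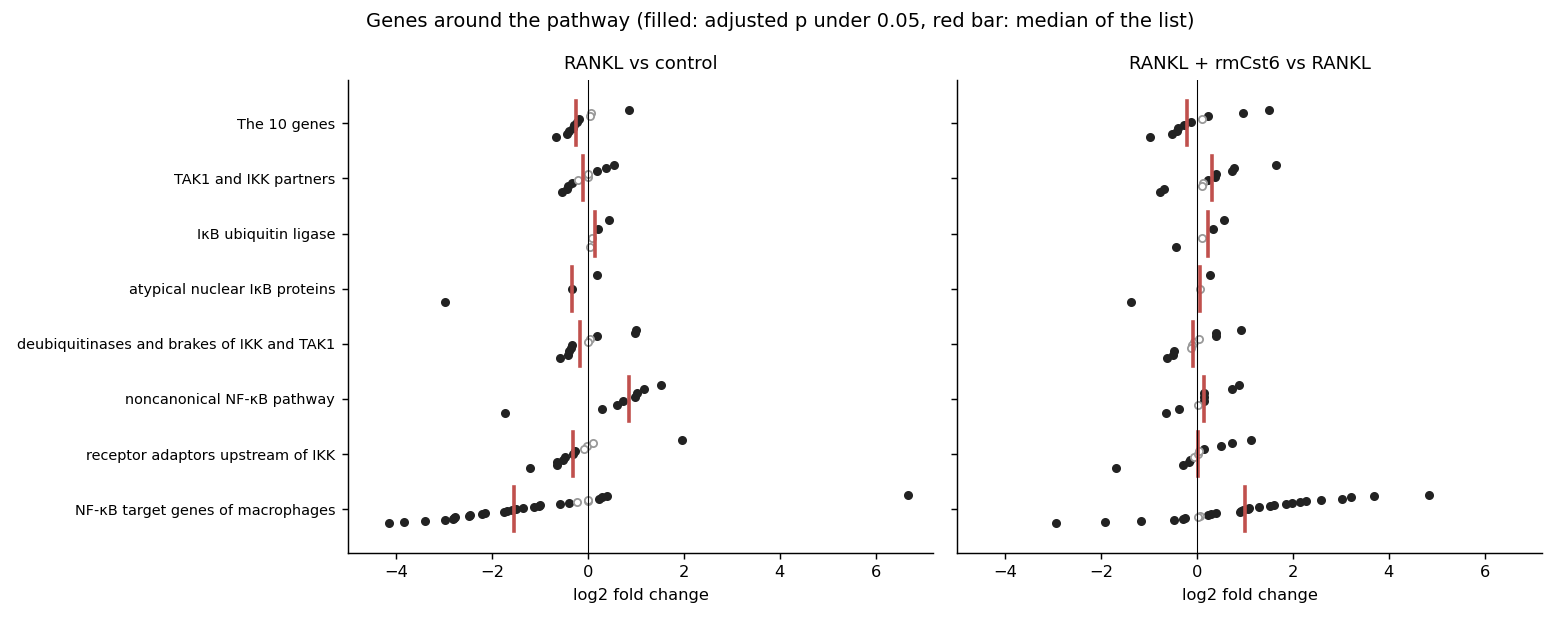
Log2 fold change (x axis) of each tested gene of the 10 described here and of 7 lists around the pathway, with RANKL against control (left) and with rmCst6 added to RANKL (right); filled points pass an adjusted p of 0.05 and red bars are list medians. The median of the target list is -1.54 on the left and 1.00 on the right, while the 10 genes have medians of -0.25 and -0.20.

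Markers of other cells than neutrophils also moved with the groups. The macrophage list summed to 959270 to 1130600 in control, 454320 to 499710 with RANKL alone and 578650 to 626150 with RANKL plus rmCst6. Lyz2 made up most of this sum in every library. Of the 8 macrophage genes, 7 were lower and 1 higher with RANKL, and 4 were higher and 1 lower with rmCst6 added. The stromal list summed to 5860 to 9826, 3145 to 3761 and 4460 to 7271 in the same order of groups. Of its 7 genes, 1 was higher and 5 lower with RANKL, and 6 were higher with rmCst6 added. Dcn rose with RANKL, from log2 values of 1.00 to 3.77 in control to 7.28 to 7.55. The megakaryocyte list summed to 8153 to 8953, 680 to 973 and 6379 to 8726, mostly from Pf4 alone. Its 4 genes tested were all lower with RANKL and all higher with rmCst6 added. Gp1bb, too low for the filter, was at 0 in every control library and at 0 to 2.75 with RANKL. The dendritic cell list summed to between 196 and 272 in all libraries, and of its 5 genes tested, 2 were higher and 2 lower in each of the first 2 comparisons. The T-cell genes Cd3e, Cd3d and Cd3g were not among the genes analysed, and the 2 measured genes of the T and NK cell list summed to 15.8 to 29.5 in control, 4.70 to 12.2 under RANKL and 36.1 to 48.8 once rmCst6 was added. The 2 measured genes of the B-cell list, Cd79b and Ebf1, summed to 200.1 to 230 in control, 37.1 to 59.2 under RANKL and 86.6 to 95.8 once rmCst6 was added. The 1 erythroid gene measured summed to at most 8.44. The part of these cells in the changes described here was not tested.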

How the data were processed

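Bulk RNA-Seq of 9 libraries, 3 a group, was analysed. The authors deposited log2 normalized expression per gene, from 0 to 19.7, for 13526 genes. The submitters' processing notes name Salmon 1.2.1, DESeq2 and GRCm38.p6, without roles. The form of the normalization, the filter on genes and the use of strand are not given in the sources used here. Undoing the log2 gives sums of 2.77e+07 to 2.88e+07 in control, 2.77e+07 to 2.80e+07 with RANKL and 3.04e+07 to 3.14e+07 with RANKL plus rmCst6. In each library, 38.0% to 54.5% of low values were within 0.02 of whole multiples of a best-fitting step (0.822 to 1.157). The rest were not, so whole reads were not recovered for every gene and no interval for counting error was given. Read depth was not estimated from these steps.

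Genes with a normalized value of at least 10 in at least 3 of 9 libraries were kept (594 left out). Group means were fitted to the log2 values of all 9 libraries with limma 3.58.1 in R 4.3.3 (trend on, robust off), a two-sided moderated test adjusted by Benjamini-Hochberg over 12932 genes. A gene was called at an adjusted p under 0.05. Since 1 was added before the log2, differences on this scale are too small for low genes. The fit was tried on simulated data in which a far smaller share of genes changed than was called here. No conclusion is drawn from that trial. Levels per kilobase used the longest transcript tagged as principal in GENCODE M21, and no other length was tried. In that annotation, 13516 of 13526 gene identifiers were matched. Promoter windows were from RefSeq.

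The text names all 10 members, from each list at most the 4 genes of lowest adjusted p with rmCst6 added, and the 2 genes nearest to each member. Members and lists were chosen with earlier results of these data known. Alternatives were the filter, the added value, scaling, the variance model, the samples fitted, the replicate block, the threshold and leaving out each library. No column was left unmatched.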

Additional observations from a re-analysis of the deposited data

How the results depend on the processing

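Each of the 30 member differences was recomputed under 20 alternatives. The direction and call stayed in 194 of 200 for RANKL against control, 197 of 200 for RANKL plus rmCst6 against RANKL and 199 of 200 against control. The filter, the trend and robust settings, the replicate block, the threshold and the samples outside a comparison cannot change its estimate, only its call. The direction was fixed in advance under those alternatives, so the totals overstate how far it was tested. In 3 of the exceptions a difference with RANKL that did not pass changed sign: Rel was -0.0425 and Nfkbie -0.0552 with median centring, and Nfkbie -0.0400 with quantile normalization. The others were Nfkbib and Rela, given with their values above, and, at an adjusted p under 0.01, Nfkbib with RANKL and Ikbkb against control. Requiring at least 2-fold left 0 members higher and 0 lower with RANKL, 1 higher and 0 lower with rmCst6 added, and 1 higher and 1 lower against control, because most changes were smaller than that. Median centring moved the median log2 change of all genes with RANKL from -0.01 to -0.12. Leaving out 1 library gave 6 to 7 members lower with RANKL and 3 to 4 higher with rmCst6 added. Deviations of same-numbered samples were only weakly correlated (-0.078 to 0.071), and not every sample correlated best with its own number. Between RANKL and RANKL plus rmCst6 each sample did, at 0.025, 0.065 and 0.071, against -0.064 to 0.0047 for unlike numbers. With the replicate block, 1 member was higher and 7 lower with RANKL, 3 higher and 6 lower with rmCst6 added, and 3 higher and 7 lower against control, with 9354, 9358 and 9267 genes called, and the block changed no member's call. Depth was not estimated, so the limit it sets on low genes is not given.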
